A study of Mus musculus with 3 samples.

Results

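The enzymes that supply mouse embryonic stem cells (mESCs) with glycine, folate-bound carbon units and methyl groups were examined on expression arrays of J1 mESCs treated with PD0325901 (PD), an inhibitor of the kinase MEK. The 10 genes were Tdh, Gcat, Gldc, Shmt1, Shmt2, Mthfd2, Mthfd1l, Mat2a, Ahcy and Psat1. They were set by their gene symbols, as all probes whose transcript accession maps to 1 of these symbols. Signals did not enter this rule, but the list was chosen with earlier results of these data known. This gave 16 of 27235 probes matched to a gene and 10 of 20660 genes. The 3 samples were replicates 1 to 3 of 1 group. J1, an mESC line of strain 129S4/SvJae, was grown on gelatin without feeder cells in medium with knockout serum replacement and leukemia inhibitory factor (LIF) at 1000 U/mL, and received 1 µM PD for 24 h. Per the study's methods the replicates were independent experiments with 1 J1 line, and each was hybridised in 1 colour to 1 array. Cells without PD were not analysed here, so nothing below is an effect of PD, and no p-value was computed.

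In mESCs, threonine is a major source of glycine. Threonine dehydrogenase and the ligase encoded by Gcat split threonine into glycine and acetyl-CoA in mitochondria, and mESCs are known to need threonine for growth. Glycine and serine hand carbon units to tetrahydrofolate through the glycine cleavage system and the serine hydroxymethyltransferases. These units serve the synthesis of purines and thymidylate and, through methionine and S-adenosylmethionine (SAM), the methylation of histones and DNA.

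All 10 genes were detected by every one of their 16 probes on all 3 arrays. A probe was taken as detected when the scanner software had flagged at least 50% of its spots as well above background, and each of these probes had 1 spot. For comparison, the share detected throughout was 72.7% of named genes on the array and 72.4% of probes with a gene name. The dimmest signal of the 16 probes was 21.9 times the local background of its spot, and no member spot was saturated. The arrays measured RNA from whole cultures, so fewer cells with a transcript and less transcript per cell cannot be told apart.

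The level of a probe is the log2 of its processed signal minus the 75th percentile of its array, which was at a signal of 551 on replicate 1, 511 on replicate 2 and 527 on replicate 3. A probe at that percentile has level 0. A gene was represented by its brightest probe. By this probe all 10 members had a mean level above 0, against 41.5% of named genes, and 15 of the 16 member probes did. With the percentile taken over detected probes, a higher mark, 8 of the 10 did, and Ahcy and Shmt1 fell below it. The 41.5% holds for genes by their brightest probe at the main mark. No like share is given here for the 15 of 16 probes or for the higher mark, so these counts have no comparison. Signals also depend on the sequence of a probe, so the members are not ranked against each other.

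**Figure D1:**
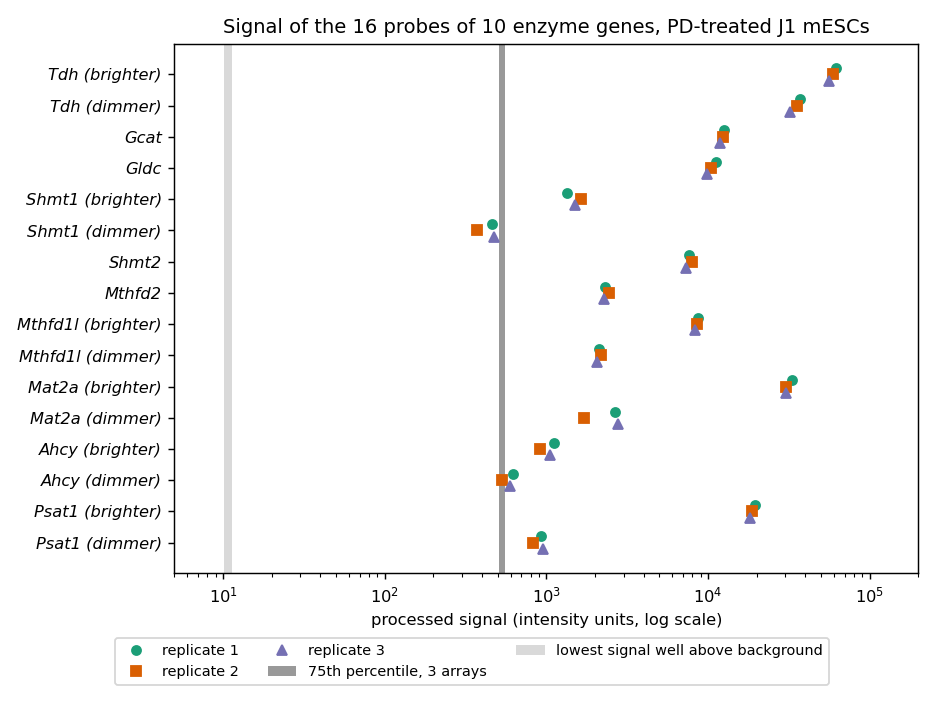
Processed signal (horizontal axis, intensity units, log scale) of the 16 probes of the 10 genes on the 3 arrays (circles, squares and triangles for replicates 1 to 3). The dark band spans the 75th percentiles of the arrays and the pale band the lowest signals well above background. Every point lies far to the right of the pale band, and the dimmer probe of Shmt1 is the only one wholly to the left of the dark band.

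Tdh encodes threonine dehydrogenase, the first enzyme of threonine breakdown to glycine. The signals of its brighter probe were 61823, 58931 and 55965 on replicates 1 to 3, a level of 6.80 ± 0.06 (SD, n = 3 here and below). The other probe gave 36892, 35506 and 32115, a level of 6.04 ± 0.10. The arrays kept 1 order in both probes, with replicate 1 brightest and replicate 3 dimmest in signal. Relative to the percentile of each array replicate 2 was the highest in both, by at most 0.19 log2 units over replicate 3. Of all probes on the array, 98.2% had a mean level at or below that of the brighter Tdh probe.

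Gcat encodes the mitochondrial ligase that takes the product of threonine dehydrogenase to glycine. Its single probe had signals of 12464, 12444 and 11864 and a level of 4.53 ± 0.06. The arrays lay within 0.11 log2 units of each other. Gldc encodes the decarboxylase of the glycine cleavage system, which breaks glycine down and charges tetrahydrofolate with a carbon unit. Its single probe gave signals of 11194, 10345 and 9897 and a level of 4.31 ± 0.06, and the levels again spanned 0.11 log2 units. The decarboxylase works in a complex with proteins encoded by Amt, Gcsh and Dld, and transcripts of all 3 were detected on every array. Their brightest probes had levels of -1.19 ± 0.17 for Amt, 5.76 ± 0.08 for Gcsh and 3.44 ± 0.06 for Dld. By these probes Amt, the aminomethyltransferase, was the only subunit gene below the 75th percentile. The other Dld probe had a level of 2.75 ± 0.09. The other Gcsh probes had 5.28 ± 0.05 and -2.00 ± 0.02, the last of these below Amt.

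Psat1 encodes phosphoserine aminotransferase, a step in the synthesis of serine from a glycolytic intermediate, and its reaction also yields alpha-ketoglutarate. The brighter probe of Psat1 had signals of 19367, 18714 and 18058 and a level of 5.14 ± 0.05. The other probe had signals of 923, 822 and 956 and a level of 0.76 ± 0.09. The probes of this gene thus differed 20.9 ± 1.95 fold in signal within an array, although both carry the same accession. The neighbouring steps of serine synthesis were detected as well. Phgdh, the dehydrogenase that opens the pathway, had a level of 4.37 ± 0.11, and Psph, the phosphatase that closes it, had 4.27 ± 0.09.

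Serine hydroxymethyltransferases move a carbon unit from serine to tetrahydrofolate, the Shmt2 product in mitochondria and the Shmt1 product mainly in the cytosol. Shmt2 had 1 probe with signals of 7632, 7952 and 7259 and a level of 3.85 ± 0.10. The arrays spanned 0.17 log2 units, with replicate 2 highest. Shmt1 had 2 probes. The brighter one had signals of 1338, 1640 and 1501 and a level of 1.49 ± 0.20, highest on replicate 2. The dimmer one had signals of 458, 373 and 476 and a level of -0.29 ± 0.16, lowest on replicate 2.

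Mthfd2 and Mthfd1l encode mitochondrial folate enzymes, which oxidise the carbon unit and release it as formate. The single Mthfd2 probe had signals of 2316, 2422 and 2257 and a level of 2.14 ± 0.09. For Mthfd1l the brighter probe had signals of 8635, 8543 and 8351 and a level of 4.01 ± 0.05. The other Mthfd1l probe, whose accession names another transcript of the gene, had signals of 2102, 2159 and 2040 and a level of 1.99 ± 0.08. The fold between the 2 Mthfd1l probes was nearly the same on each array, at 4.11, 3.96 and 4.09.

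Mat2a encodes the catalytic subunit of the SAM synthetase found outside the adult liver. Its brighter probe had signals of 33205, 30339 and 30504 and a level of 5.89 ± 0.03, the smallest SD of the 16 probes. The dimmer probe had signals of 2668, 1705 and 2770, a level of 2.14 ± 0.35. No other of the 16 had so large an SD. Replicate 2 lay apart from the others in the dimmer probe only. Ahcy encodes the hydrolase that removes S-adenosylhomocysteine, the product left after SAM has given up its methyl group. Its brighter probe had signals of 1116, 915 and 1045 and a level of 0.95 ± 0.10. The other Ahcy probe had signals of 617, 531 and 591 and a level of 0.13 ± 0.06. Both Ahcy probes were lowest on replicate 2, and neither spanned more than 0.18 log2 units.

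The spread between the replicates was small for most of these genes. Over the brightest probes of the 10 genes the median SD was 0.063 log2 units, against 0.074 over 14999 detected named genes with a value on each array and 0.058 over the 8561 of these above level 0. Over all 16 member probes the median SD was 0.084, for which no like value over all detected probes is given here. None of the 10 genes had a range of more than 0.5 log2 units between the arrays, where 6.26% of detected named genes did. Of the 16 probes 1 exceeded this range, the dimmer probe of Mat2a, against 6.89% of detected probes matched to a gene. In 10 of the 16 probes replicate 2 lay farthest from the middle value, in 5 it was replicate 3 and in 1 replicate 1. Over all detected probes matched to a gene these shares were 42.7% for replicate 2, 29.5% for replicate 3 and 27.8% for replicate 1. Which array was highest moved with the scaling: replicate 2 was so in 9 of the 16 probes, and in 7 when arrays were scaled to their medians. The median shift of replicate 2 over all genes also moved, from 0.027 to -0.041 log2 units. Whether the counts follow this shift was not tested. Without replicate 2 the median SD of the members was 0.024. That of the other genes of the pathway, listed below, fell as well, from 0.081 to 0.039. No value over all detected genes without replicate 2 is given here.

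**Figure D2:**
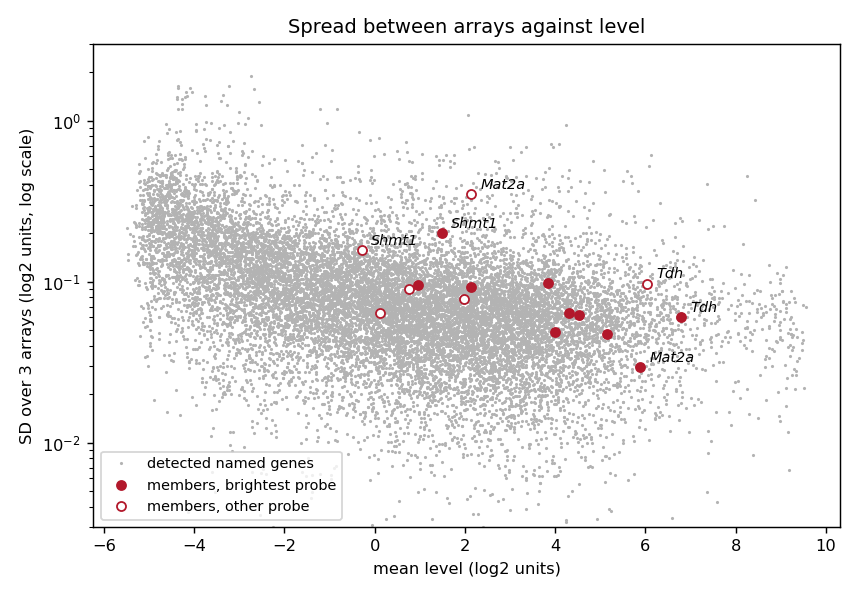
SD over the 3 arrays (vertical axis, log2 units, log scale) against mean level (horizontal axis, log2 units) of the 14999 detected named genes (grey) and of the members (red, filled for the brightest probe of a gene and open for the other probe). Most members lie within the grey cloud, and the open point of Mat2a at 0.35 and the filled point of Shmt1 at 0.20 are the highest of the red points.

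With 1 spot per probe, the error of a spot could be taken only from the error model of the scanner software, which gave about 10% of the signal for each of the 16 probes. The difference between arrays was divided by the combined error of the 2 spots. In 15 of the 16 probes no pair of arrays lay more than 2 combined errors apart. The exception was again the dimmer probe of Mat2a, with 2.64 combined errors between replicates 1 and 2 and 3.22 between replicates 2 and 3. Over all detected probes matched to a gene, 7.35% had such a pair. Next came the brighter probe of Shmt1, with 1.96 combined errors between replicates 1 and 2, and its dimmer probe, with 1.52 between replicates 2 and 3. In the other 13 probes every pair lay within 1 combined error, for which no like share over all detected probes is given here.

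**Figure D3:**
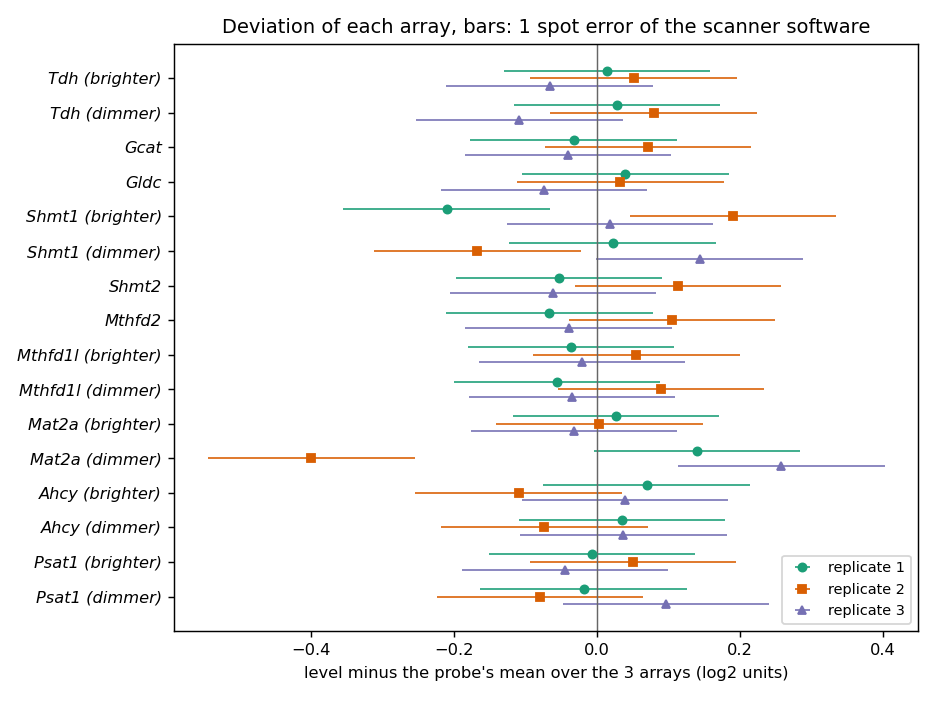
Level of each array minus the mean of the probe (horizontal axis, log2 units) for the 16 probes. Bars are 1 spot error from the scanner software, and symbols mark the replicates. Replicate 2 of the dimmer Mat2a probe lies at -0.40, apart from the other arrays, and the 2 probes of Shmt1 place replicate 2 on opposite sides of 0, as those of 43.8% of genes with 2 probes do.

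The probes of 6 genes could be set against each other within each array. Relative to the other arrays, replicate 2 lay on opposite sides in the probes of 3 of these genes, Mat2a, Psat1 and Shmt1, as it did in 43.8% of the 3126 genes with exactly 2 probes, both detected. In Mat2a the side of the brighter probe changed with the scaling, being positive in 4 of 8 settings. In Tdh, Ahcy and Mthfd1l the gap between the probes moved by at most 0.07 log2 units over the arrays. In Mat2a the brighter probe exceeded the dimmer one 12.4, 17.8 and 11.0 fold on replicates 1 to 3, so that the gap moved by 0.69 log2 units. In Shmt1 the fold was 2.93, 4.40 and 3.15, and the gap moved by 0.59. Psat1 lay between, at 21.0, 22.8 and 18.9 fold and 0.27 log2 units. A gap that moved by more than 0.5 log2 units was found in 13.4% of the 3126 genes, whose median was 0.21. The median gap itself was 1.96 log2 units in these genes, and it was 0.76 in Tdh, 0.82 in Ahcy, 1.78 in Shmt1, 2.02 in Mthfd1l, 3.75 in Mat2a and 4.38 in Psat1.

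The ranges were also compared by the place of a spot on the array. When each array was divided into 48 blocks, 6 blocks of replicate 2 held at least 10 spots marked as non-uniform, and no block of the other arrays did. Of the detected probes matched to a gene, 16.1% in these marked blocks and 5.60% outside them had a range above 0.5 log2 units. Among the 16 member probes only the brighter Shmt1 probe lay in a marked block. The dimmer Mat2a and Shmt1 probes did not, and what set replicate 2 apart in them was not tested, nor was the part of the block in the brighter one. With the median deviation of each block removed, the range of the dimmer Mat2a probe was 0.66 log2 units.

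Upstream sequences of the members were read to see what they share beside their function. RefSeq windows of GRCm38.p6, 250 bases before to 50 bases after a gene start, were held for 9 of the 10 genes, with 2 starts for Psat1, and not for Tdh. The 10 windows had a median of 16 CpG dinucleotides. The median was 18 over 15074 windows of detected named genes, 3 over 4923 windows of named genes that were not detected and 7 over all 32851 windows. Each of the 10 lay above the last value, and 4 of 10 lay above the median of detected genes. The counts ran from 8 in Mthfd1l and 10 in Gldc to 34 in Mat2a. By this count the members thus lay among other detected genes.

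Simple promoter motifs were searched on both strands of these windows. The GC box GGGCGG stood in 7 of the 10 (57.9% of windows of detected genes) and the box CCAAT in 6 of 10 (37.8%). The E-box CACGTG occurred in 1, Gcat (9.55%), and the TATA box TATAAA in 1, Mat2a (8.43%). The core TGATGNAA of the elements bound by Atf4, a regulator of amino acid genes, occurred in 0 of 10 windows (2.44% of windows of detected genes), which says only that these letters are absent there. Overlapping matches of a motif were all counted. The 250 bases before the start are shown for 3 genes because they held the most matches. Capitals mark the GC boxes, CCAAT boxes and the TATA box in either orientation. Mat2a lies on chr6:72439557-72439806, minus strand, Shmt1 on chr11:60811266-60811515, minus strand, and Mthfd2 on chr6:83317605-83317854, minus strand.
Mat2a: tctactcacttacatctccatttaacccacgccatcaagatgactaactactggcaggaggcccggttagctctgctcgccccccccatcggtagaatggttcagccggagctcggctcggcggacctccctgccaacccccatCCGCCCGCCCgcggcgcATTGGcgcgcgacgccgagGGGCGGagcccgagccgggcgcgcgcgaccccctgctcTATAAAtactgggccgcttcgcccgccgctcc
Shmt1: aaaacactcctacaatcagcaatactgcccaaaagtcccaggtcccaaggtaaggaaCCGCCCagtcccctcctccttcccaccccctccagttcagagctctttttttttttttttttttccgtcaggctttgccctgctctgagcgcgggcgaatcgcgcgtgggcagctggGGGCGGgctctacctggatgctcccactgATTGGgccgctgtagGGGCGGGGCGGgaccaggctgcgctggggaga
Mthfd2: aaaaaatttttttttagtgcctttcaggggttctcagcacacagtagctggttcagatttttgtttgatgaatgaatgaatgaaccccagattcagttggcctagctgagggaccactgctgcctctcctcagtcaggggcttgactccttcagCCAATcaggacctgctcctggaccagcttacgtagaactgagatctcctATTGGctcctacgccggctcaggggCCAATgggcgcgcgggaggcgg
In Mat2a the TATA letters begin 32 bases before the start and follow 3 GC box matches, of which 2 overlap. Shmt1 held 4 GC box matches, of which the last 2 overlap, and 1 CCAAT box, and Mthfd2 held 3 CCAAT boxes and no GC box. A match is a run of letters and not a measured site.

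The other genes of the pathway formed a list of 41, all with a probe on the array. Of these 37 (90.2%) were detected by their brightest probe on all arrays, against 72.7% of named genes. Of the 37 genes 28 were above level 0, where 8561 of 14999 detected named genes with a value on each array were. Their median SD was 0.081 log2 units. The 4 genes that were not detected were Mat1a, Sds, Ftcd and Bhmt2, which encode enzymes known from adult liver. Gnmt, whose product is abundant in liver too, was detected on all 3 arrays, so liver enzymes of the list went both ways. Mat1a, the liver form of the SAM synthetase, had signals of 5.75, 11.2 and 9.96. Sds, serine dehydratase, had 2.71, 3.05 and 5.01, and Ftcd, which feeds carbon units from histidine into folate, had 5.81, 5.05 and 8.03. Bhmt2, a homocysteine methyltransferase, had 9.07, 9.36 and 9.52. All lay below the lowest signal of any spot that was well above background on the same array, which was 10.1, 11.4 and 10.3. All 41 genes passed a looser flag of the software, which asks only for a positive and significant signal. No like share of named genes is given here, so this count has no comparison. Sds passed it with software errors of 98.0%, 98.8% and 55.4% of its signals. The 4 genes are bounded from above and were not shown to be silent or expressed.

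**Figure D4:**
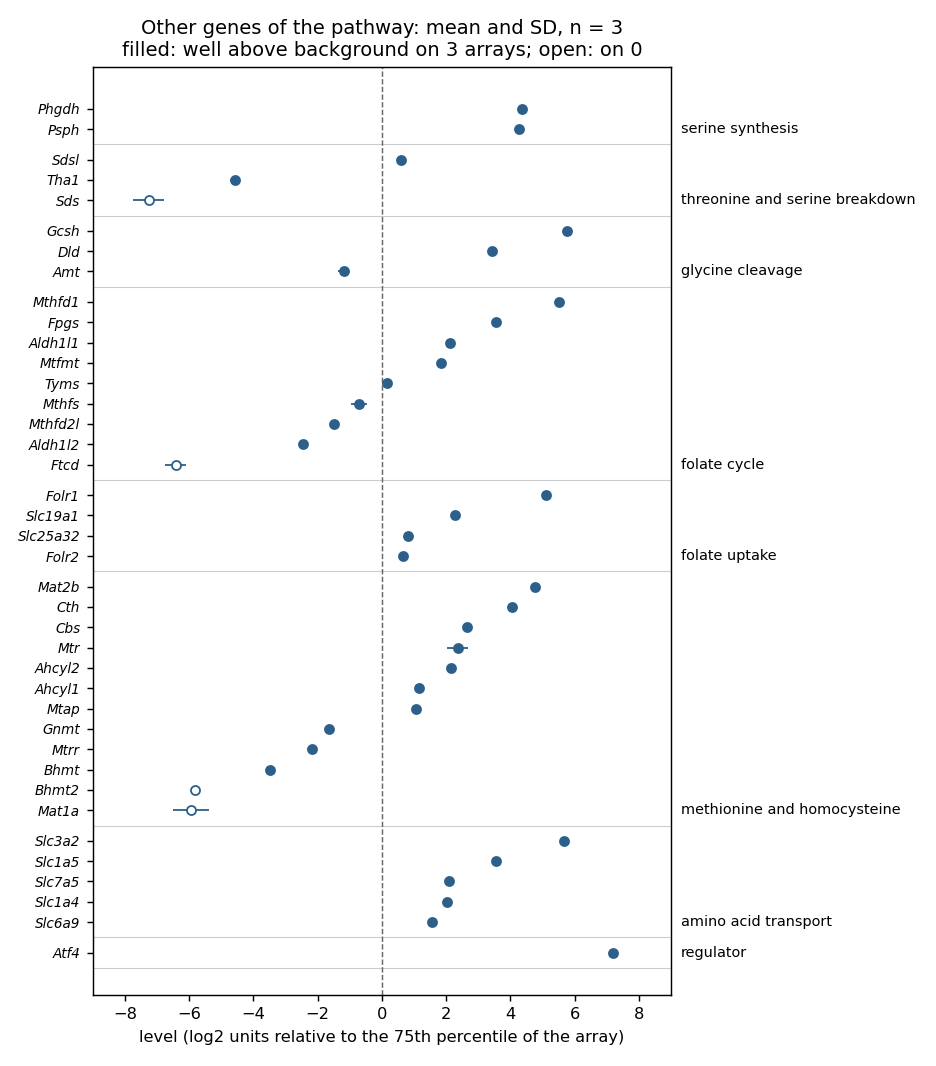
Level (horizontal axis, log2 units relative to the 75th percentile of the array) of 39 of the 41 other genes of the pathway by group, as mean and SD over the 3 arrays of the brightest probe. Filled points were well above background on 3 arrays and open points on 0. The open points are Sds, Ftcd, Bhmt2 and Mat1a, and the filled points reach from -4.57 for Tha1 to 7.19 for Atf4.

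Several enzymes of the pathway exist as paralogues. Beside Mat2a, the regulatory subunit gene Mat2b was detected, with signals of 14583, 14276 and 13916 and a level of 4.75 ± 0.05, whereas Mat1a was not. Beside Mthfd2, its paralogue Mthfd2l was detected at -1.48 ± 0.10, and Mthfd1, whose product carries out these folate steps in the cytosol, at 5.52 ± 0.03. Beside Ahcy, the related genes Ahcyl1 and Ahcyl2 were detected at 1.16 ± 0.04 and 2.14 ± 0.11 by their brighter probes. Their dimmer probes had levels of -1.98 ± 0.21 and -1.22 ± 0.02. The formyltetrahydrofolate dehydrogenases had levels of 2.12 ± 0.03 for Aldh1l1, the cytosolic form, and -2.45 ± 0.09 for Aldh1l2, the mitochondrial form. Whether a probe also catches the transcript of a paralogue was not tested, since the probe sequences were not used here.

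In the folate cycle 10 of 11 genes were detected. Mthfs, which returns a stored form of folate to the cycle, had signals of 370, 256 and 354 and a level of -0.72 ± 0.25. It was lowest on replicate 2, where its probe lay in a marked block, and the part of that block was not tested. Tyms, the thymidylate synthase, had a level of 0.16 ± 0.15 and Mtfmt, which formylates the initiator tRNA of mitochondria, 1.84 ± 0.08. Fpgs, which holds folates in the cell by adding glutamates, had a level of 3.55 ± 0.05. All 4 genes of folate uptake were detected. The receptor genes Folr1 and Folr2 had levels of 5.12 ± 0.07 and 0.66 ± 0.08. The carrier gene Slc19a1 had 2.26 ± 0.08 and the mitochondrial carrier gene Slc25a32 had 0.80 ± 0.05. The dimmer probes of Folr1 and Slc19a1 had levels of 1.02 ± 0.06 and -1.80 ± 0.03.

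Of the 12 genes of methionine and homocysteine metabolism 10 were detected. Mtr, the methionine synthase, had signals of 3266, 2028 and 3007 in its brighter probe and of 1469, 1416 and 1444 in its other probe. Replicate 2 was thus low in 1 of the 2 probes, as in Mat2a. In Mtr this probe lay in a marked block, and the part of the block was not tested. By its brighter probe Mtr spanned 0.58 log2 units over the arrays. Mtrr, which reactivates the methionine synthase, had a level of -2.19 ± 0.13. The enzymes that draw homocysteine into cysteine synthesis had levels of 2.65 ± 0.04 for Cbs and 4.06 ± 0.03 for Cth, and Mtap, which salvages methionine, had 1.06 ± 0.05. Gnmt, a glycine methyltransferase abundant in liver, was detected at -1.64 ± 0.07. Bhmt was detected by 2 of its 3 probes at signals of at most 50.6.

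Of the alternative routes of threonine and serine breakdown, Tha1, threonine aldolase, was detected near the lower limit, with signals of 26.1, 20.3 and 20.8. Sdsl, a relative of serine dehydratase, had a level of 0.61 ± 0.03. All 5 amino acid transporter genes were detected. Slc3a2 and Slc7a5, which form a carrier of large neutral amino acids, had levels of 5.65 ± 0.12 and 2.08 ± 0.05. Slc1a5 and Slc1a4, carriers of small neutral amino acids, had 3.56 ± 0.04 and 2.03 ± 0.06, and Slc6a9, a glycine carrier, had 1.56 ± 0.11. The dimmer probes of Slc7a5, Slc1a5 and Slc6a9 had levels of -1.10 ± 0.10, 1.40 ± 0.02 and 1.24 ± 0.17. The transcription factor gene Atf4 had signals of 76171, 81762 and 73662 and a level of 7.19 ± 0.12 in its brighter probe, and of 1.65 ± 0.10 in the other. The brighter Atf4 probe lay in a marked block of replicate 2. Among other probes of the pathway in such blocks were both of Psph, the dimmer ones of Slc6a9 and Dld, and a Bhmt probe.

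The label of the cells was checked with marker genes. All 7 genes of embryonic stem cells (Pou5f1, Nanog, Sox2, Esrrb, Klf4, Zfp42 and Fgf4) were detected, with a summed signal between 133492 and 144127 per array. The largest parts of this sum came from Fgf4 at 39369 to 44464, Esrrb at 38256 to 42672 and Zfp42 at 25132 to 27071. Nanog was the dimmest, with signals of 689 to 695 and a level of 0.39 ± 0.05. Pou5f1 had signals of 11265, 16872 and 10239, a range of 0.76 log2 units that exceeded that of any member probe, with replicate 2 highest and its probe outside the marked blocks. Of 5 hepatocyte genes 2 were detected, Tat at signals of 124 to 147 and Serpina1a at 25.7 to 27.6, and the summed signal was 162 to 190. Alb and Apoa1 were detected on 0 arrays and Ttr on 1. Of 7 fibroblast genes 4 were detected, with sums of 1249 to 1369. Thy1 had signals of 612 to 640, above the 75th percentile, Col1a2 had 345 to 489, Col1a1 had 219 to 232 and Dcn had 20.9 to 24.6. Col3a1 was detected on 1 array and Lum and Postn on 0. All 5 primitive endoderm genes were detected at sums of 313 to 346, of 3 mesoderm genes 1 was, and all 3 neural genes were, at sums of 782 to 865. The neural gene Sox1 had signals of 574 to 635 in its brighter probe, above the 75th percentile and close to those of Nanog.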

How the data were processed

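Per the file headers, the intensities of the 3 one-colour arrays were made by the authors with Agilent Feature Extraction 10.7.3.1, which subtracted background and removed trends within each array. They were not normalized between arrays. The deposited table holds log2 values of the same probes, normalized in a way not given in the sources used here. Probes were named through the RefSeq table of GRCm38.p6, to which 27235 of 55681 probes matched. For each probe, spots without outlier flags were averaged as log2 processed signal, and the 75th percentile over probes that were not controls was subtracted per array. Detection, ranges, spot errors and blocks are as given above. With 1 group of 3 arrays no test between conditions was possible, and 3 arrays set the precision of each mean and SD. The functions for ranges and spot errors were tested on simulated data. Python 3.11.15, R 4.3.3 and limma 3.58.1 (normexp, offset 50, on median signals) were used. Named are, by rule, all members and the genes of the pathway list, of which some are counted but not reported here by name. The members and lists were chosen with earlier results of these data known.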

Additional observations from a re-analysis of the deposited data

How the results depend on the processing

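No paired analysis was possible because the 3 arrays form 1 group. The alternatives were quantile normalization, the median of the array, the percentile over detected probes, normexp correction, the deposited table, outlier spots kept, the mean of detected probes, other rules of detection, no filter on dim probes and leaving out each replicate. Removing block medians, all settings for the count of member probes with a wide range and, for the pathway genes, the rule that all spots be well above background were added after the data had been seen. All 10 members and 16 probes stayed detected under every rule tried. The rule that every probe of a gene be detected was stricter than the main rule for the 6 genes with 2 probes. The other rules could not have lowered the counts, since for these probes each was equal to the main rule or looser. The pathway list had between 35 and 41 detected genes. With 1 replicate left out, the median SD of the members lay between 0.024 without replicate 2 and 0.081 without replicate 1, and that of the pathway genes between 0.039 without replicate 2 and 0.072 without replicate 1. With replicate 2 left out, 0 member probes had a range above 0.5 log2 units, and without replicate 1 or 3 it was 1. Under the 8 scalings and corrections, replicate 2 stayed below the mean of the others in the dimmer Mat2a probe, by -0.67 to -0.59 log2 units, and the probes of Shmt1 and of Psat1 kept opposite signs. Small differences between arrays depended on the scaling: replicate 2 was the highest array in 9 of 16 member probes with the 75th percentile and in 7 with the median. Over all genes the median shift of replicate 2 was 0.027 log2 units with the former and -0.041 with the latter. Of 110 recomputed levels of the members, 76 moved by less than 1 SD and 34 by more. Taking the array median as level 0 raised all 10 (Mat2a to 9.63), and the percentile over detected probes lowered all 10, Ahcy to -0.97 and Shmt1 to -0.43. Averaging the detected probes of a gene lowered the 6 genes with 2 probes, among them Psat1 from 5.14 to 2.95, Mat2a from 5.89 to 4.01, Mthfd1l from 4.01 to 3.00 and Shmt1 from 1.49 to 0.60.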
